A study of Mus musculus with 7 samples.

Results

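Semaphorins, ephrins, Slits and their receptors were followed in mouse epidermis after deletion of the lipid transporter gene Abca12. Genes were chosen by symbol from the deposited table: semaphorins of classes 3 to 7, ephrins, netrins and Slits as ligands, and plexins, neuropilins, Eph receptors, Robo and Unc5 genes as receptors. This gave 27 genes of the 7091 in the table, 14 ligands and 13 receptors. No netrin was among them. The mouse annotation used here holds 68 genes of these families, so 39.7% of them were in the table, and the other 41 were not analysed here.

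Total RNA was sequenced in bulk from epidermis separated from resting (telogen) skin of 7 mice. The 4 KA mice (K14-CreERT;ABCA12-cKO; KA 1 and KA 2 male, KA 3 and KA 4 female) carried a conditional Abca12 allele and a tamoxifen-dependent Cre recombinase under the keratin 14 promoter, which is active in basal keratinocytes. The 3 controls (ABCA12-c/c; controls 1 and 3 female, control 2 male) had the conditional allele but no CreERT. All were given tamoxifen from 8 weeks of age on 3 days, at 1 mg per 40 g of body weight, and skin was taken 2 weeks later. Any effect of the recombinase itself is therefore part of the comparison. Abca12 itself was not analysed here, so the genotypes were taken from the labels.

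These families were named for steering growing axons, and epithelia use them too. Secreted class 3 semaphorins bind a neuropilin that pairs with a class A plexin, whereas most membrane-bound semaphorins bind plexins directly. Ephrin-A ligands are held to the membrane by a lipid anchor and mainly bind EphA receptors, and transmembrane ephrin-B ligands mainly bind EphB receptors, with signals running into both of the touching cells. Slits are secreted ligands of Robo receptors, and Unc5 proteins are netrin receptors. In epidermis, Eph and ephrin contacts are known for roles in keratinocyte adhesion, differentiation and migration.

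The table lists only genes that the authors called at an adjusted p-value under 0.05, 7091 of the 19407 that their adjustment covered (36.5%). All 27 genes were thus selected on the comparison described here, and passing it again is no independent evidence. Of 6746 listed genes with enough reads for a refit, 6743 passed (100% when rounded; edgeR's quasi-likelihood test, Benjamini-Hochberg adjusted p under 0.05), 52.7% as higher and 47.3% as lower in KA. Libraries held 9590718 to 12761458 reads in the listed genes, which is a part of their depth. Keratinocyte transcripts were abundant in every library, with Krt5, a basal keratin, at 231909 ± 10494 normalised reads in controls (SD, n = 3) and 327217 ± 27150 in KA (SD, n = 4). Of 10 keratinocyte markers 6 were listed, of which Krt5, Krt14 and Krt1 rose and Krt15, Col17a1 and Dsg1a fell. Krt15, a keratin of basal and hair follicle stem cells, went from 174948 ± 24167 to 40040 ± 21878, Col17a1, a hemidesmosome collagen, from 50806 ± 7924 to 24532 ± 6145, and Dsg1a, a desmosomal cadherin, from 31350 ± 1449 to 13324 ± 3856. The part of these shifts in the results below was not tested. Normalised reads are counts divided by the authors' size factor of each library. Rescaling on the listed genes alone shifted all log2 fold changes down by a median of 0.14 (TMM) or 0.17 (RLE), and the fold changes below are to be read against that shift.

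Ligands were mostly lower in KA epidermis. Of the 14, 9 fell and 5 rose, with a median log2 fold change of -0.61 beside 0.36 over all genes tested. The falls took in every listed class 3 semaphorin (Sema3c, Sema3d and Sema3f) and every listed ephrin (Efna1, Efna3, Efna4 and Efnb2), and the rises every listed class 4 semaphorin (Sema4a, Sema4c and Sema4d). Of the 13 receptors, 12 had enough reads for the test, of which 7 rose and 5 fell, with a median of 0.47. Because a table of called genes holds few small differences, each of these medians mostly shows which direction had more genes. The largest adjusted p-value among the 26 tested genes was 0.0285 (edgeR's quasi-likelihood test). With TMM factors 23 of the 26 passed, beside 91.4% of all genes tested that way, and Sema4a, Sema5a and Robo1 did not. Adjusted over the 19407 genes that the authors' adjustment covered, 22 of the 26 passed, and Sema4a, Sema5a, Robo1 and Ephb4 did not. Of all 6746 tested genes, 3109 rises and 2806 falls passed that way. In 26 of the 27 genes all mutants lay on one side of all controls, as in 93.3% of all listed genes, so the share for these families was near that of the table. A difference of at least 1 on the log2 scale was reached upward by 7 of the 26 tested genes, beside 20.5% of all tested genes, and downward by 6, beside 20.7%.

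**Figure D1:**
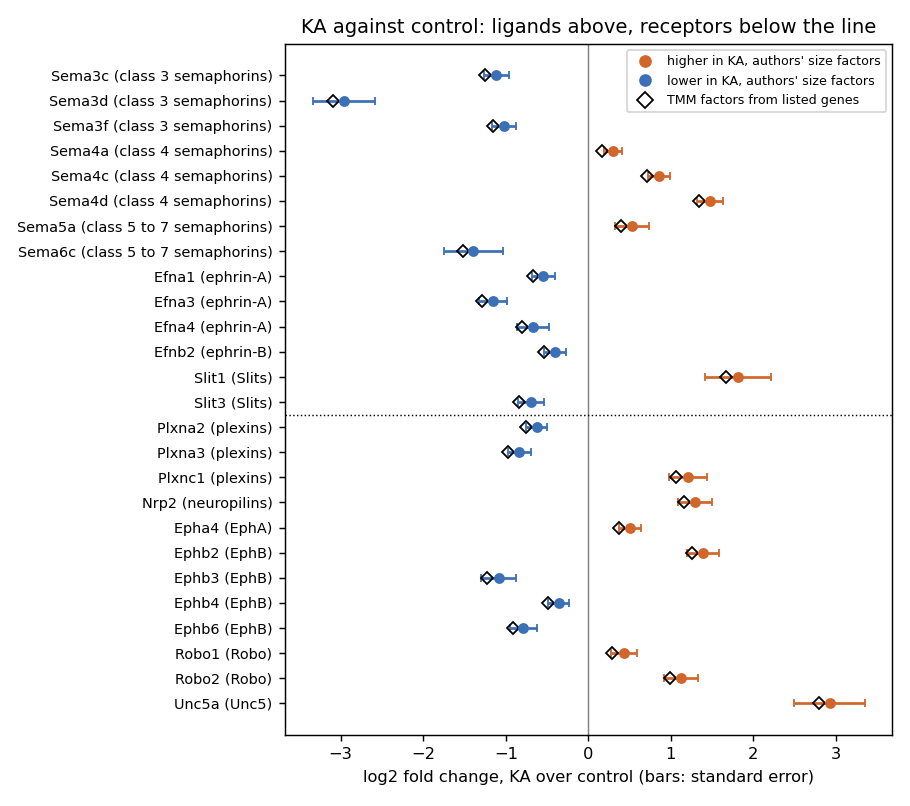
Log2 fold change of KA over control (x axis) for the 26 tested genes, ligands above and receptors below the dotted line. Filled points with standard error bars use the authors' size factors and open diamonds use TMM factors from the listed genes, which lie further to the left for every gene; class 3 semaphorins and ephrins lie left of 0, class 4 semaphorins and Robo genes right of it.

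Sema3d (ENSMUSG00000040254, chromosome 5, 12383385 to 12588948, GRCm38), which encodes a secreted semaphorin, showed the largest fall of all 26 tested genes. Controls 1, 2 and 3 held 2973, 2429 and 2062 normalised reads, and KA 1 to KA 4 held 136, 276, 527 and 336. All mutants were far below all controls, with KA 1 lowest and KA 3 highest among the mutants. The control mean was 2488 ± 458 (SD, n = 3) and the KA mean 319 ± 163 (SD, n = 4), for a log2 fold change of -2.96 (standard error 0.37, with an adjusted p of 0.000204 by edgeR's quasi-likelihood test). Sema3c, another secreted semaphorin on the same chromosome, held 3090, 2898 and 2515 reads in controls and 1082, 1397, 1195 and 1569 in KA 1 to KA 4. All 4 mutants were well below the lowest control, and the log2 fold change was -1.11 (standard error 0.15). Sema3f held 6939, 6085 and 7085 reads in controls and 2938, 2782, 3705 and 3787 in KA, for a log2 fold change of -1.02 (standard error 0.14). The groups were again apart, with a narrow spread on both sides.

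Class 4 semaphorins, which are membrane-bound, moved the other way. Sema4d (ENSMUSG00000021451, chromosome 13, 51685529 to 51793747), whose product binds plexin-B receptors and CD72, held 275, 288 and 322 normalised reads in controls and 1029, 755, 691 and 804 in KA 1 to KA 4. The lowest mutant exceeded the highest control, and KA 1 was the highest of all. Its log2 fold change was 1.48 (standard error 0.16, with an adjusted p of 4.49e-05 by edgeR's quasi-likelihood test). Sema4c, also a ligand of plexin-B receptors, held 737, 666 and 584 reads in controls and 1297, 1224, 1178 and 1093 in KA, for a log2 fold change of 0.86 (standard error 0.13). Sema4a was the least changed of the 3, with 2034, 1799 and 1950 reads in controls and 2464, 2106, 2506 and 2418 in KA. Its difference of 0.30 (standard error 0.11) passed with the authors' size factors (adjusted p = 0.0246) but not with TMM factors, where it was 0.16 (edgeR quasi-likelihood adjusted p = 0.179), nor without control 2 (0.25, adjusted p = 0.107) or control 3 (0.31, adjusted p = 0.0613).

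The other listed semaphorins were a class 5 and a class 6 gene, both encoding transmembrane proteins, and they differed in direction. Sema6c held 169, 142 and 172 normalised reads in controls and 24.7, 67.6, 98.2 and 55 in KA 1 to KA 4, giving a log2 fold change of -1.39 (standard error 0.36, with an adjusted p of 0.00428 by edgeR's quasi-likelihood test). As with Sema3d, KA 1 was lowest and KA 3 highest among the mutants. Sema5a held 646, 469 and 609 reads in controls and 659, 779, 702 and 1174 in KA. KA 1 lay just above control 1, and KA 4 well above the other mutants. Its log2 fold change of 0.53 (standard error 0.21) did not pass with TMM factors (0.40, edgeR quasi-likelihood adjusted p = 0.104), nor without KA 4 (0.31, edgeR quasi-likelihood adjusted p = 0.0792) or without control 2 (0.40, edgeR quasi-likelihood adjusted p = 0.113).

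Ephrin-A genes fell together. Efna1, Efna3 and Efna4 lie side by side on the minus strand of chromosome 3, in a stretch of 66.3 kb with gaps of 32.8 kb and 10.4 kb, and no other protein-coding gene lies in it in the annotation. Because these neighbours moved alike, the bases just upstream of each are shown, from RefSeq on GRCm38.p6, limited to what lies outside the deposited gene. They are written 5′ to 3′ on the gene's strand, with capitals marking a GC box (GGGCGG) or a CCAAT box on either strand. The windows are chr3:89281143-89281201 for Efna1, chr3:89322966-89323189 for Efna3 and chr3:89338029-89338278 for Efna4.
Efna1: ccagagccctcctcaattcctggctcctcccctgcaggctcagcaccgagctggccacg
Efna3: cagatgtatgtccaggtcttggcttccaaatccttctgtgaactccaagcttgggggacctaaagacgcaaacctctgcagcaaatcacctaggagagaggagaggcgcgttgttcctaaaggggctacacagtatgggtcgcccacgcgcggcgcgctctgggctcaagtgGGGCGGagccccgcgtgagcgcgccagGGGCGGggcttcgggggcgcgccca
Efna4: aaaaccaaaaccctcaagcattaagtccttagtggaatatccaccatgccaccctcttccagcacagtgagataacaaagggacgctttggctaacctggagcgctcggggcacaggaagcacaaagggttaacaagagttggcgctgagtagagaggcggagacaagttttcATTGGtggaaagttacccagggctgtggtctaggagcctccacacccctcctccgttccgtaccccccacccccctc

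The Efna3 stretch of 224 bases is 63.4% G or C and holds 2 GC boxes, whereas the Efna4 stretch of 250 bases is 54.4% G or C and holds 1 CCAAT box and no GC box. The Efna1 stretch, 59 bases, holds neither. In the full windows of 250 bases upstream of the RefSeq start, which reach into the deposited gene for Efna1 and Efna3, Efna1 has 1 GC box, Efna3 has 3 and Efna4 has none. No motif searched was thus shared by all 3 neighbours.

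Efna3 (ENSMUSG00000028039, chromosome 3, 89313899 to 89322965) fell most of the ephrins. Controls held 5432, 4180 and 4724 normalised reads and KA 1 to KA 4 held 1638, 2051, 2767 and 2134. The highest mutant was far below the lowest control, and the log2 fold change was -1.15 (standard error 0.17, with an adjusted p of 0.000217 by edgeR's quasi-likelihood test). Efna4 (chromosome 3, 89333390 to 89338028) held 935, 774 and 800 reads in controls and 369, 579, 688 and 469 in KA, for a log2 fold change of -0.67 (standard error 0.19). Efna1 (chromosome 3, 89271733 to 89281142) held 2103, 2330 and 2238 in controls and 1245, 1602, 1800 and 1457 in KA, for a log2 fold change of -0.54 (standard error 0.14). The fall of Efna1 did not pass in females alone (-0.41, edgeR quasi-likelihood adjusted p = 0.0704). In all 3 genes KA 1 was the lowest mutant and KA 3 the highest. Antisense transcripts overlap 14.1% of the Efna3 exon bases (Gm15998) and 10.5% of those of Efna4 (4731419I09Rik), and since no strand setting is given, reads cannot be assigned between the partners. Both antisense genes held far fewer reads than their partners: Gm15998 had 14.9 ± 9.27 normalised reads in controls (SD, n = 3) and 2.93 ± 1.97 in KA (SD, n = 4), too few for the test, and 4731419I09Rik had 18.1 ± 1.12 and 5.99 ± 3.14. The latter fell by 1.57 on the log2 scale (standard error 0.45, with an adjusted p of 0.00742 by edgeR's quasi-likelihood test).

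Efnb2, the only listed ephrin-B gene, fell less. It held 5168, 6033 and 5319 normalised reads in controls and 3931, 4988, 4151 and 3620 in KA 1 to KA 4, giving a log2 fold change of -0.40 (standard error 0.13, with an adjusted p of 0.0152 by edgeR's quasi-likelihood test). KA 2 came close to the lowest control. Without control 2, the highest control, it no longer passed (-0.33, edgeR quasi-likelihood adjusted p = 0.0669).

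The listed Slit genes, both encoding large secreted proteins, differed in direction and in level. Slit3 held 587, 519 and 476 normalised reads in controls and 338, 392, 261 and 310 in KA 1 to KA 4, giving a log2 fold change of -0.70 (standard error 0.16, with an adjusted p of 0.00273 by edgeR's quasi-likelihood test). Slit1 was scarce, with 18.9, 6.19 and 15.2 reads in controls and 43.5, 64.2, 46 and 38.4 in KA. All mutants were above all controls, and control 2 was the lowest library. The log2 fold change of Slit1 was 1.81 (standard error 0.40), from counts of 6 to 20 per control library.

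**Figure D2:**
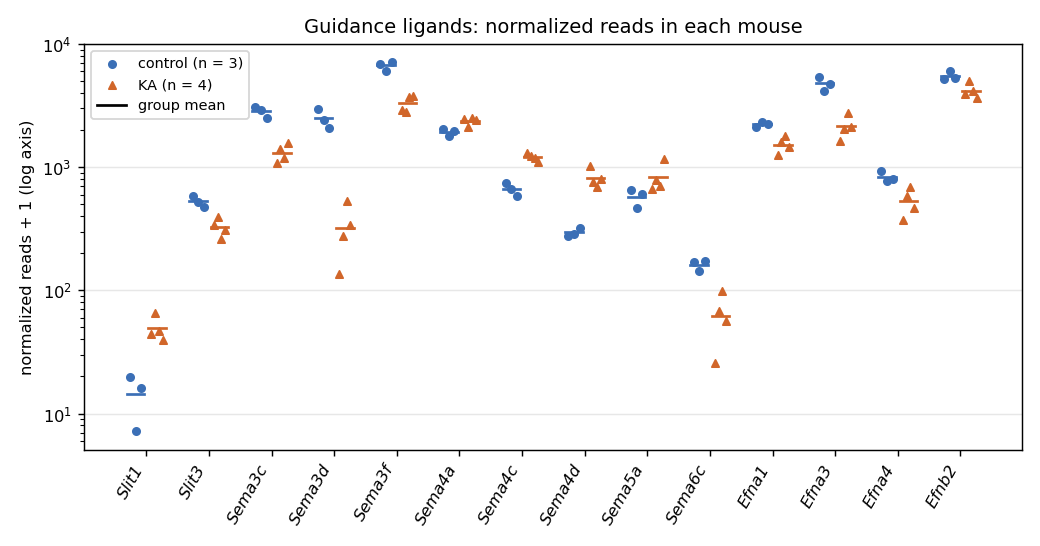
Normalised reads plus 1 (log axis) of the 14 ligands in each mouse, controls as circles (n = 3) and KA as triangles (n = 4), with horizontal lines at the group means. The groups are apart in every ligand, by the widest margin in Sema3d, where KA values of 136 to 527 stand against control values of 2062 to 2973.

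Among receptors, both tested class A plexins fell. Plxna3, a receptor for class 3 semaphorins with neuropilins, held 1550, 1247 and 1073 normalised reads in controls and 669, 728, 770 and 725 in KA 1 to KA 4, giving a log2 fold change of -0.84 (standard error 0.14, with an adjusted p of 0.000463 by edgeR's quasi-likelihood test). The mutants lay close together and below every control. Plxna2, of the same class, held 898, 762 and 919 reads in controls and 536, 522, 562 and 609 in KA, for a log2 fold change of -0.63 (standard error 0.12). Plxna4 was near the limit of detection, with counts of 14, 14 and 7 in controls and 0, 0, 3 and 3 in KA, and did not pass the filter on low counts. Its summed KA level was 0.147 of the control level, with an exact 95% interval of 0.0505 to 0.353 that covers counting error only.

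Plxnc1 and Nrp2 rose. Plxnc1, the receptor of the membrane-anchored semaphorin Sema7a, held 65.3, 48.5 and 66.6 normalised reads in controls and 150, 152, 113 and 141 in KA 1 to KA 4, giving a log2 fold change of 1.21 (standard error 0.23, with an adjusted p of 0.000838 by edgeR's quasi-likelihood test). Nrp2, a co-receptor that binds Sema3f and Sema3c and also vascular endothelial growth factors, held 120, 177 and 131 reads in controls and 371, 426, 287 and 315 in KA. Every mutant exceeded every control in both genes, and the log2 fold change of Nrp2 was 1.29 (standard error 0.21). Within the semaphorin system, Nrp2 thus rose while its listed ligands Sema3c and Sema3f and the listed class A plexins tested fell.

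Eph receptors moved both ways. Ephb6, which lacks kinase activity, was the most abundant gene of all 27 per kilobase and held 11140, 9430 and 8909 normalised reads in controls and 4663, 5007, 7278 and 5838 in KA 1 to KA 4. KA 3 was the mutant nearest to the controls, and the log2 fold change was -0.79 (standard error 0.17, with an adjusted p of 0.00153 by edgeR's quasi-likelihood test). Ephb3 held 2566, 1888 and 1521 reads in controls and 752, 996, 1240 and 761 in KA, for a log2 fold change of -1.09 (standard error 0.21). Ephb4, the receptor that prefers Efnb2, held 2166, 1760 and 1977 in controls and 1373, 1521, 1505 and 1742 in KA. KA 4 was only just below control 2, and the log2 fold change was -0.36 (standard error 0.13, with an adjusted p of 0.0177 by edgeR's quasi-likelihood test). The fall did not pass without control 1 (-0.28, edgeR quasi-likelihood adjusted p = 0.0722).

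Ephb2 and Epha4 were the Eph receptors that rose. Ephb2, a kinase-active receptor of ephrin-B ligands, held 244, 189 and 284 normalised reads in controls and 799, 596, 498 and 619 in KA 1 to KA 4, giving a log2 fold change of 1.39 (standard error 0.20, with an adjusted p of 0.000176 by edgeR's quasi-likelihood test). The lowest mutant was well above the highest control. Epha4, which binds ephrins of both classes, held 1035, 899 and 1184 reads in controls and 1449, 1494, 1359 and 1610 in KA, for a smaller log2 fold change of 0.51 (standard error 0.13). The rise of Epha4 did not pass in females alone (0.42, edgeR quasi-likelihood adjusted p = 0.0691). Of the 5 listed Eph receptors, 2 therefore rose and 3 fell, while the 4 listed ephrins all fell.

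Both listed Robo genes, which are neighbours on chromosome 16 with 846 kb between them, were higher in KA. Robo2 held 75.7, 79.4 and 112 normalised reads in controls and 179, 185, 206 and 210 in KA 1 to KA 4, giving a log2 fold change of 1.12 (standard error 0.21, with an adjusted p of 0.000783 by edgeR's quasi-likelihood test). Robo1 held 910, 709 and 658 reads in controls and 998, 845, 1047 and 1197 in KA. It was the single gene whose groups overlapped, since control 1 exceeded KA 2. Its difference of 0.43 (standard error 0.16) passed with the authors' size factors (adjusted p = 0.0223) but not with TMM factors (0.29, edgeR quasi-likelihood adjusted p = 0.116), nor without control 2, control 3 or KA 4 (0.34 to 0.38, edgeR quasi-likelihood adjusted p = 0.0606 to 0.0956).

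Unc5a, a netrin receptor, had the largest rise of the 26 tested genes and nearly the lowest level. It held 1.89, 5.15 and 4.81 normalised reads in controls, from 2, 5 and 6 counts, and 29.7, 29.3, 29.2 and 35.3 in KA 1 to KA 4. The 4 mutants were closely grouped and all far above the controls. The log2 fold change was 2.92 (standard error 0.43, with an adjusted p of 0.000204 by edgeR's quasi-likelihood test).

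**Figure D3:**
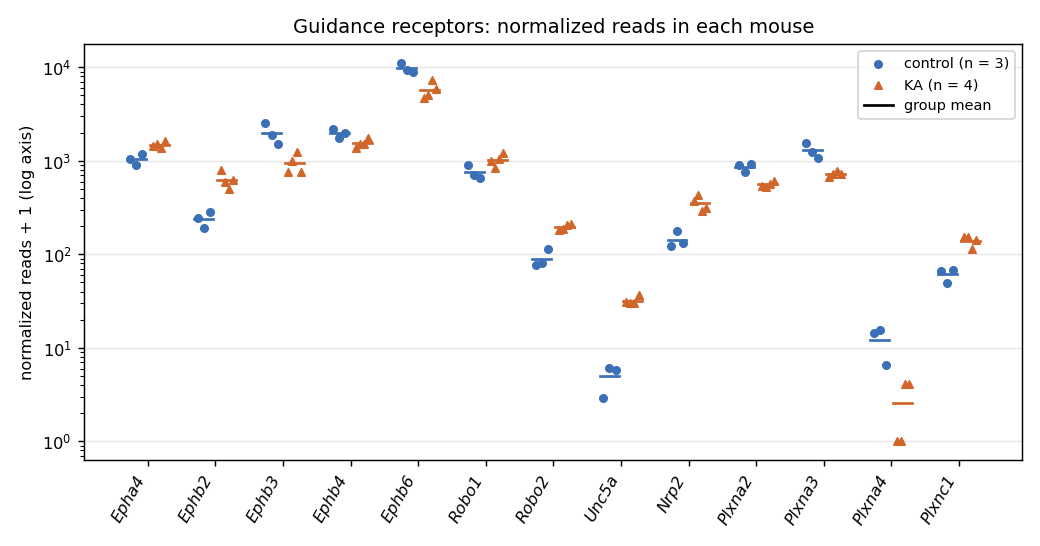
Normalised reads plus 1 (log axis) of the 13 receptors in each mouse, controls as circles (n = 3) and KA as triangles (n = 4), with horizontal lines at the group means. Ephb6 is the highest receptor in both groups and Unc5a and Plxna4 the lowest, and Robo1 is the one receptor whose groups overlap.

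Levels were compared between genes as normalised reads per kilobase of exon. In controls the order ran from Ephb6 (2604 ± 309, SD, n = 3) through Efna3 (1963 ± 258), Sema3f (1290 ± 104), Efna1 (1215 ± 62.5) and Efnb2 (803 ± 67.4) down to Slit1 (2.27 ± 1.11), Unc5a (0.948 ± 0.43) and Plxna4 (0.787 ± 0.339). Control values of neighbours in this order overlapped in 14 of 26 pairs, among them Sema3f with Efna1 and Sema3c with Sema4a. By mean level Ephb6 and Efna3 also came first and second in KA, at 1510 ± 308 and 882 ± 192 (SD, n = 4), but Efna3 overlapped with Efna1 (834 ± 128), which was the higher of the pair in KA 1 and KA 2. By mean, Sema3d went from rank 11 to rank 19 and Sema4d from rank 18 to rank 13. Summed per kilobase, the 3 listed ephrin-A genes gave 3702 ± 248 in controls and 2045 ± 398 in KA, the class 3 semaphorins 1976 ± 128 and 856 ± 127, and the class 4 semaphorins 539 ± 29.7 and 807 ± 49.4.

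Direction differed with level. Of the 14 listed guidance genes above the table's median control level of 97.8 reads per kilobase, 11 were lower in KA, the exceptions being Sema4a, Sema4c and Epha4. Of the other 13, 4 were lower, namely Slit3, Plxna2, Sema6c and Plxna4. Over all listed genes the corresponding shares were 44.7% and 50.2%, so the table as a whole leaned slightly the other way. The control values enter both the level and the direction, and these counts were made after the values were seen and carry no test.

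**Figure D4:**
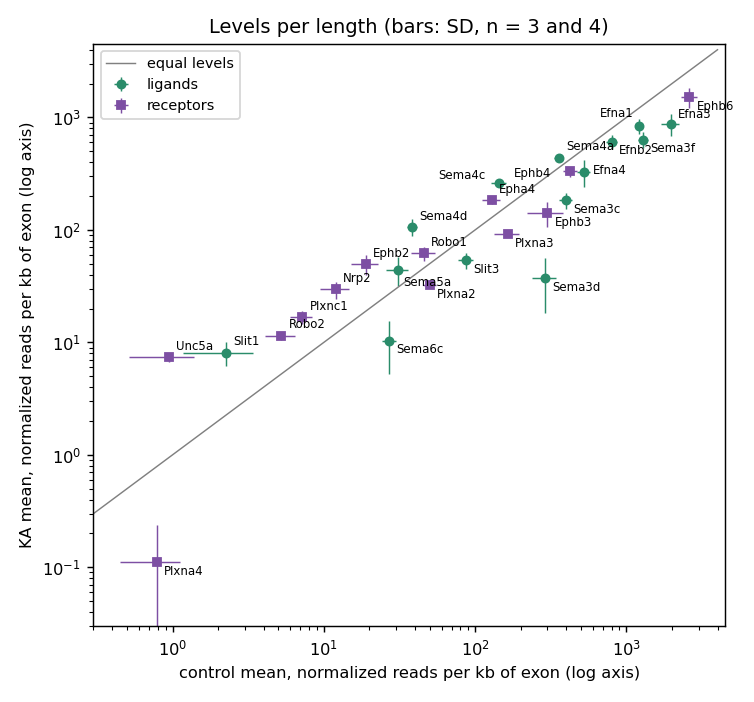
Mean level in KA against mean level in controls, in normalised reads per kilobase of exon (log axes), for the 14 ligands (circles) and 13 receptors (squares), with SD bars (n = 3 and n = 4, shortened for Plxna4 where they would reach below 0) and a line of equal levels. Genes at the upper right, such as Ephb6 at 2604 against 1510, mostly lie below the line, and scarce genes such as Unc5a and Slit1 above it.

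The mutants differed from each other in how far they lay from the controls. On the log2 scale, KA 1 lay farthest from the control mean, in the direction of the difference, in 13 of the 27 genes (48.1%) and KA 3 nearest in 15 (55.6%). In Plxna4, KA 1 and KA 2 both had 0 counts and were tied as farthest, and ties were counted for neither mouse. Over all listed genes KA 1 was farthest in 57.1% and KA 3 nearest in 48%. Among the 15 genes lower in KA, KA 1 was farthest in 10, among them Sema3d, Sema6c and the 3 ephrin-A genes. Over all listed genes that were lower, KA 1 was farthest in 53.3%. Among the 12 higher genes KA 1 was farthest in 3, Sema4c, Sema4d and Ephb2, and KA 4 in 5. Over all listed genes that were higher, KA 1 was farthest in 60.6% and KA 4 in 14.3%.

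**Figure D5:**
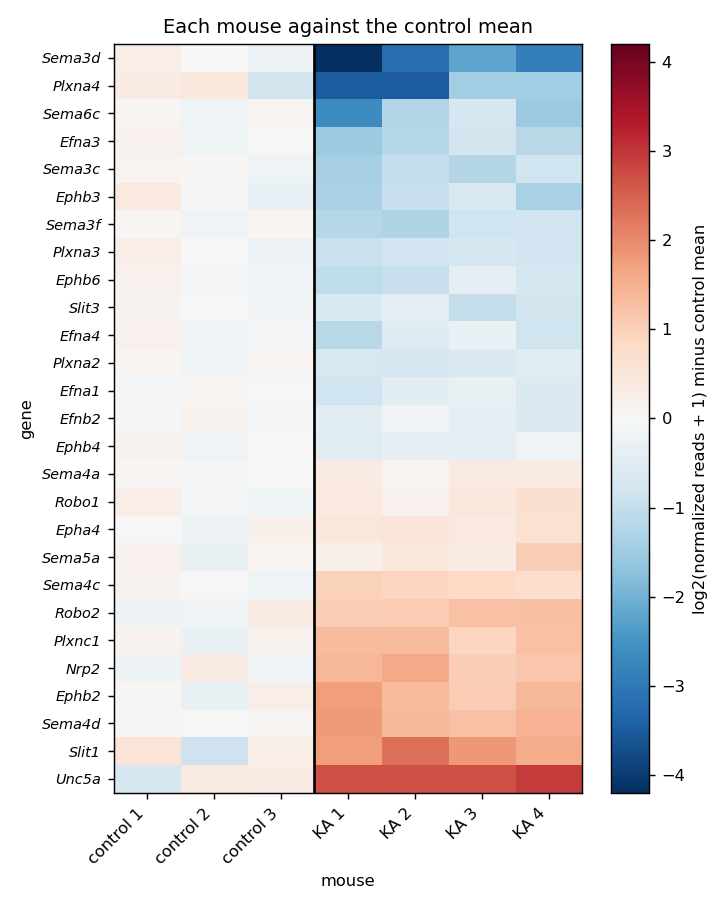
Difference of each mouse from the control mean, as log2(normalised reads + 1), for the 27 genes (rows, ordered by the authors' log2 fold change) in 3 controls and 4 KA mice (columns); blue is lower and red is higher. KA 1 alone has the deepest blue in 10 of the 15 lower genes and shares it with KA 2 in Plxna4, and KA 3 is nearest to the controls in 9 of them. Over all listed lower genes KA 1 alone was farthest in 53.3% and KA 3 nearest in 46.1%.

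A comparison that the choice of listed genes did not use directly was whether the genotype effect differed between males and females. The choice is not unrelated to it, since a sex difference within a group adds spread and makes listing less likely. The interaction passed an adjusted p-value of 0.05 in 0 of the 26 tested genes (edgeR's quasi-likelihood test, 3 residual degrees of freedom, 1 male control), and 1 had an unadjusted p-value under 0.05; DESeq2 and limma-voom likewise gave 0 adjusted and 1 unadjusted each. Over all tested genes 0.0445% passed adjusted and 2.85% unadjusted. The gene was Ephb2, whose rise was larger in males by 0.81 on the log2 scale (standard error 0.36; edgeR quasi-likelihood unadjusted p = 0.0459, adjusted p = 1). Slit1 followed, with a difference of 1.79 (standard error 0.85; unadjusted p = 0.0562 by edgeR's quasi-likelihood test), resting on 6 counts in the male control. The precision of this comparison is low, and differences between the sexes of the size seen for Slit1 were not resolved.

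Other genes of guidance signalling were taken from a list of 88, of which 46 were in the table and 45 were tested. Of the 19407 genes that the authors' adjustment covered, 36.5% were in the table. The list was drawn by hand with earlier results of these data known, so the shares come from unlike sets. Of the 45, 21 rose and 24 fell, beside 52.7% and 47.3% of all tested genes. Their median log2 fold change was -0.34 beside 0.36 over all genes tested, and no test was made of these counts. As above, such medians mostly show which direction had more genes, and both splits were nearly even. The largest rises were in Crmp1 and Dpysl2, which encode collapsin response mediators that act downstream of semaphorins, in Enah, an actin regulator of the Ena/VASP family, and in Rnd1, a small GTPase that binds plexins. Enah went from 511 ± 37.2 normalised reads in controls (SD, n = 3) to 2231 ± 386 in KA (SD, n = 4), for a log2 fold change of 2.13 (standard error 0.16). Crmp1 went from 10.7 ± 5.68 to 65.6 ± 31.7, Dpysl2 from 78.9 ± 45 to 253 ± 74 and Rnd1 from 27 ± 5.17 to 79.4 ± 14.4. The largest falls were in Flrt1, a membrane ligand of Unc5 receptors, in Ablim3, an actin-binding protein, in Srgap2, of the Slit-Robo GTPase-activating family, and in Ngef, the exchange factor ephexin that acts under EphA receptors. Srgap2 went from 2680 ± 172 to 749 ± 231, Ngef from 273 ± 25.5 to 77.8 ± 8.08, Ablim3 from 758 ± 45.6 to 194 ± 68.8 and Flrt1 from 81.5 ± 34.2 to 16.9 ± 10.1. Vegfa, a ligand of neuropilins named here after its value was seen, rose from 607 ± 17.6 to 1415 ± 345, in the same direction as Nrp2.

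Markers of other cells that epidermis can hold moved as well. In bulk RNA, fewer cells of a type and less RNA per cell cannot be told apart. All 9 genes on the Langerhans cell list were in the table and rose, with summed levels of 29030 to 40584 normalised reads in controls and 55073 to 81591 in KA. The lists were chosen with earlier results of these data known, and Adgre1, given below, was kept off this list. Most of these sums came from Cd74, Epcam, H2-Aa, H2-Ab1 and H2-Eb1. Cd207 alone went from 699 ± 114 (SD, n = 3) to 1369 ± 166 (SD, n = 4). Of 10 endothelial markers, Pecam1 and Flt1 were listed and rose, from sums of 16.1 to 33.7 up to 63.7 to 111, and of 10 fibroblast markers Vim and Fbln1 rose, from 2082 to 2960 up to 4601 to 5909. Of 10 nerve and Schwann cell markers, Mbp, Ngfr and Pmp22 fell, from 2272 to 2848 down to 1064 to 1821, and of 9 melanocyte markers Dct and Mitf fell, from 328 to 551 down to 247 to 335. Of 10 T cell markers 5 were listed, of which 2 rose and 3 fell, among the latter Trdc of gamma delta T cells, from 444 ± 58.5 (SD, n = 3) to 138 ± 15.8 (SD, n = 4). Of 10 neutrophil and other myeloid markers 4 were listed, of which Cxcr2 and Lyz2 rose and Adgre1 and Cd68 fell. Adgre1, which could also have been placed on the Langerhans cell list, went from 164 ± 58.9 (SD, n = 3) to 61.1 ± 5.84 (SD, n = 4). That every gene on the Langerhans cell list rose thus depends on how the lists were drawn. Of 10 muscle and adipocyte markers Cidec alone was listed and rose. None of the listed markers was at 0 in every library, and the remaining markers were not analysed here. The part of these cells in the rises of Sema4d, Nrp2 and Plxnc1 and the falls of Sema3d and Slit3 was not tested.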

How the data were processed

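The authors' deposited table gives, per the file headers, raw read counts per gene and normalised reads (a signal without a unit, the count divided by 1 size factor per library), with the authors' mean signal, log2 fold change, test score and p-values. The submitters' processing notes list fastp, STAR 2.6.1d, featureCounts 1.5.0-p3, DESeq2 1.40.2 and mm10; the strand setting is not given in the sources used here. No column belonged to another sample (0 columns).

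The gene families and lists were chosen with earlier results of these data known. Counts were fitted with edgeR 4.0.16 (R 4.3.3) on all listed genes: library sizes from the authors' size factors (0.888 to 1.25), because factors from a table of called genes would scale on changed genes; filterByExpr, which left out 345 genes; robust glmQLFit and glmQLFTest; Benjamini-Hochberg adjustment over 6746 genes. A standard error was taken as the size of the log2 value divided by the root of the F statistic. Positions are those of the table and matched GENCODE M21 on GRCm38 for all 27 genes. The code was tested on simulated data.

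All 27 genes are named. Values in every library were planned for the 6 largest rises and 6 largest falls among ligands and among receptors and for the most abundant gene of each family, and were then given for all 27. From the pathway list, the 4 largest rises and falls with at least 2 CPM of the listed reads were named. The log2 distance of a mouse used a pseudocount of 1. DESeq2 1.42.0 and limma 3.58.1 (limma-voom) served as alternatives.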

Additional observations from a re-analysis of the deposited data

Results flagged for a closer look

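For each of the 27 genes, Dixon's test at its 95% limit asked whether the highest or the lowest of the 4 KA values stood apart, by the distance to the next value as a share of the spread from lowest to highest. By chance this marks about 5% of such groups, and 1 gene was marked. In Unc5a the share was 0.929, because KA 4 held 35.3 normalised reads and the other mutants 29.2 to 29.7. Those 3 values lie unusually close together, and all 4 mutants were far above the controls at 1.89 to 5.15.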

How the results depend on the processing

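Over 21 alternatives, no tested ligand or receptor changed direction, and 498 of their values kept their side of the threshold while 48 lost it. The genes were selected on this comparison, and part of this tally was fixed in advance. The authors' adjusted p, among the alternatives, was itself the rule of listing. Adjustment over 19407 genes and the fold threshold reused the log2 fold changes of the main fit, so direction could not change there. The 5 rising ligands became 3 with TMM factors, RLE factors, the replicate block, females alone, the lower run of animal numbers alone, or adjustment over 19407 genes, with Sema4a and Sema5a lost; they became 2 when a log2 fold change of at least 1 was also required, where the 9 falling ligands became 5 and the 5 falling receptors 1. Over all genes the 3554 rises and 3189 falls became 2144 and 1937 in females alone, and 1382 and 1398 with that fold threshold. Leaving out 1 library gave 3 to 5 rising and 8 to 9 falling ligands, 6 to 7 rising and 4 to 6 falling receptors, 3208 to 3487 rises and 2820 to 3162 falls over all genes, and 0 sex interactions in every fit that could be made; without control 2, the only male control, that term could not be fitted. The 3 rising ligands came without control 2.

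Control and KA samples share sample numbers in the titles. In their deviations from the group means, same-numbered samples correlated at -0.194, 0.134 and -0.0973. With so few libraries these values can neither show nor exclude a pairing, and the main fit did not treat the numbers as pairs. Control 1 correlated best with KA 4, but control 2 correlated best with KA 2, which has its number. The titles also share the letters A, B and C across groups, whose meaning is not given; with the letter as a block, Sema4a did not pass (edgeR quasi-likelihood adjusted p = 0.0522) and 4 ligands rose. With the replicate block, Sema4a, Sema5a, Efnb2 and Robo1 did not pass. Animal numbers form a pair of runs whose meaning the labels do not give: within the lower run the same 4 genes did not pass, and in the higher run, with 1 control, both KA libraries lay beyond it in all 27 genes, which follows largely from how the genes were chosen. In females alone 7 of 26 did not pass, namely Sema4a, Sema5a, Efna1, Efnb2, Epha4, Ephb4 and Robo1. With the longest transcript as length, the ratio of the ligand to the receptor median level in controls moved from 7.16 ± 0.258 to 5.79 ± 0.933 (SD, n = 3). Depth limits Plxna4, Unc5a and Slit1.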

Other observations

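RefSeq promoter windows, 250 bases upstream of a start site on GRCm38.p6, were found for 24 of the 27 genes and searched on both strands for 5 motifs. For 19 of the 24, bases just after the start were found in an annotated transcript of the gene. For Sema3d, Sema4a, Sema4c, Sema6c and Ephb2 they were not. The windows of Sema4d and Robo1 lie inside the deposited gene, far from its 5′ end. A GC box (GGGCGG) was present in 18 of the 24 windows (75%), beside 53.4% of 6693 windows of listed genes and 32.7% of 32851 windows in all. The 24 are 1 window per gene, at the start nearest the deposited 5′ end. The shares beside them count every window of a gene, so the sets are unlike. Both rising and falling genes held it, such as Nrp2 and Unc5a with 5 each and Ephb6 with 5. A CCAAT box was present in 8 (33.3%, beside 34.6% of windows of listed genes), among them Efna4, Sema3d and Sema4d. An AP-1 site (TGANTCA) was found in Sema4c alone (4.17%, beside 5.71%), a TATA box (TATAAA) in Efnb2 alone (4.17%, beside 7.66%) and an E-box (CACGTG) in none of the 24 (beside 8.13%). These are matches of letters in a window, with no test.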
